A study of Mus musculus with 4 samples.

Results

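The CXC chemokines described here are 10 genes for small secreted or membrane-bound chemoattractant proteins, measured in mouse embryonic fibroblasts (MEFs) with and without p53 and with and without doxorubicin. They are Cxcl1, Cxcl2 and Cxcl5, whose products attract neutrophils, Cxcl9, Cxcl10 and Cxcl11, which interferons induce, and a further class of Cxcl12, Cxcl14, Cxcl16 and the CX3C ligand Cx3cl1, which are homeostatic or membrane-anchored. The members were chosen by gene name from this family, with the values of these arrays known, so every value below is a description and no test was made on them. They are 10 of the 31704 genes on the array and were read by 13 of its 39429 probes.

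Total RNA from wild-type (p53+/+, WT) MEFs and from p53-/- MEFs, each untreated or given doxorubicin, was Cy3-labeled and hybridized to one-color mouse expression arrays from Agilent. Doxorubicin is an anthracycline that traps topoisomerase II on DNA and so breaks it, and p53 is the transcription factor that such breaks stabilize. The study used the arrays to look for p53-regulated genes that act on myosin. There was 1 array for each of the 4 conditions, all on 1 slide, so no difference between conditions was replicated, and where an array sat on the slide cannot be told apart from its condition. The dose and duration of doxorubicin for the arrays, the strain, the passage and the number of embryos behind each culture are not given in the sources used here.

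Chemokines bind G protein-coupled receptors on target cells and draw them along a gradient. Neutrophil ligands of the CXC family signal through CXCR2, the interferon-induced ligands through CXCR3 on T cells and natural killer cells, CXCL12 through CXCR4 and ACKR3, CXCL16 through CXCR6, and CX3CL1 through CX3CR1. In fibroblasts, the neutrophil ligands are known targets of NF-kB, CXCL9, CXCL10 and CXCL11 are known targets of interferon-activated STAT and IRF factors, with NF-kB acting on CXCL10 too, and CXCL12 is produced constitutively.

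The promoters of some members that were highest in doxorubicin-treated p53-/- MEFs are shown first, beside that of Cxcl12, which was not. They were picked with the values known. Cx3cl1, also highest there, and Cxcl14, lowest there, have a window too but are not printed. RefSeq (assembly GRCm38.p6) gave a start site window for 7 of the 10 members. Cxcl5, Cxcl11 and Cxcl16 were not matched. The windows were searched on both strands from 250 bases before to 50 bases after the start for the NF-kB consensus (the kB consensus) and for GAAANNGAA, the core of interferon-stimulated response elements. The 250 bases before the start are printed 5′ to 3′ on the strand of the gene, with matches to either motif in capitals. They lie at chr5:90890995-90891244 (plus strand) for Cxcl1, chr5:90903649-90903898 (plus strand) for Cxcl2, chr5:92328080-92328329 (minus strand) for Cxcl9, chr5:92348890-92349139 (minus strand) for Cxcl10 and chr6:117168285-117168534 (plus strand) for Cxcl12.
Cxcl1: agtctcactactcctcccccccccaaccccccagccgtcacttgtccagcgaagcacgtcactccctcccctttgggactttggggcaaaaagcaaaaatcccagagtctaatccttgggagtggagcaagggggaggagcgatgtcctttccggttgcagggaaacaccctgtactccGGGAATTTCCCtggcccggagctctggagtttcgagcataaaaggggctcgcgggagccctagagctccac
Cxcl2: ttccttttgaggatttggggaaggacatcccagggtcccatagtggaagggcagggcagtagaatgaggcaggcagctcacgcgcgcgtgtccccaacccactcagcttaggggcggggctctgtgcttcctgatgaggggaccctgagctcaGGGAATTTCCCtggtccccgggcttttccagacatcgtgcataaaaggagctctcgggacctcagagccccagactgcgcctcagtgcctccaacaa
Cxcl9: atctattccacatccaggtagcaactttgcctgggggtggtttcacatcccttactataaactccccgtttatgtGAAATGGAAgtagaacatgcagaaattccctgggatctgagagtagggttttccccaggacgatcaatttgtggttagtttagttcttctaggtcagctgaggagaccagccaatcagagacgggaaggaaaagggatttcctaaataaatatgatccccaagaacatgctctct
Cxcl10: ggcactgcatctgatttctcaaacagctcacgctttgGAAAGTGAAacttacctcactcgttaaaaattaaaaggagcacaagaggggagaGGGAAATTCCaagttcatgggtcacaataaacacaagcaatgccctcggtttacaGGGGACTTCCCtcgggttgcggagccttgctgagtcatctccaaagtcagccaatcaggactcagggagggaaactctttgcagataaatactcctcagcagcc
Cxcl12: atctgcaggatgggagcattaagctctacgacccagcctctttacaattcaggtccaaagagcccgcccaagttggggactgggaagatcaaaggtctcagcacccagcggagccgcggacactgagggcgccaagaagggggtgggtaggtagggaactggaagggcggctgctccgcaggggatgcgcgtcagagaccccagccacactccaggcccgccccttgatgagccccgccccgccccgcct

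Cxcl1 and Cxcl2 carried the same capital run, which holds kB matches that overlap by all but 1 base on opposite strands. These matches began 71 and 70 bases before the start in Cxcl1 and 97 and 96 bases before it in Cxcl2. Cxcl10 held kB matches that began 159, 104 and 103 bases before the start, the last pair overlapping, and a GAAANNGAA match at 213 bases. Cxcl9 held a GAAANNGAA match at 175 bases and no kB match, and Cxcl14, whose promoter is not shown, held one at 172 bases. Neither motif was matched in the windows of Cxcl12 and Cx3cl1. Cx3cl1 was thus highest in doxorubicin-treated p53-/- MEFs without a match, and Cxcl14 was lowest there with one. Whether matches go with signal was not tested. Of 32851 RefSeq windows of this length, 8.46% held the kB consensus and 8.56% held GAAANNGAA. A match is a description of the letters and not of binding.

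A signal below is the intensity of a spot as Agilent Feature Extraction processed it, and a ratio is the log2 ratio of signals after each was divided by the 75th percentile of its array, which was between 1819 and 2421. Errors are Feature Extraction's own (1 SD) carried into the log2 ratio, and they cover the spot and not the culture. Repeat spots of a probe spread by 0.0596 (SD, log2), or 0.0843 for a ratio. Between 56.9% and 62.9% of probes were marked well above background. The brightest of 153 negative control spots reached 108.3 in untreated WT, 77.46 in doxorubicin-treated WT, 250.1 in untreated p53-/- and 119.7 in doxorubicin-treated p53-/- MEFs, and members under these limits are named where they occur. Where a probe was well above background on 1 array of a pair, the ratio is a bound. It was computed against the lowest signal so marked on the other array, or the probe's own signal there where that was higher. The Trp53 probe had signals of 1228 without and 3442 with doxorubicin in WT MEFs, and of 442.4 and 543.4 in p53-/- MEFs, so it was lower in both p53-/- libraries and well above background in all 4.

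All 10 fibroblast markers, among them Col1a1 and Pdgfrb, were well above background on all 4 arrays. Of 12 leukocyte markers, 7 or 8 were well above background on each array, and their summed signal, in multiples of the 75th percentile, was 16.1 and 20.3 in WT and 18.1 and 15 in p53-/- MEFs (untreated and doxorubicin-treated). The marker Cd79a was not well above background on any array, and the pan-leukocyte marker Ptprc was between 65.29 and 104.3. Itgam and Csf1r, markers of myeloid cells, were well above background on all 4 arrays. Itgam, with signals between 26260 and 31690, made up most of the leukocyte sum. Of 6 epithelial markers, 3 to 5 were well above background, with Epcam on no array, and their summed signal was 5.74 and 10.5 in WT and 5.37 and 17.9 in p53-/- MEFs. Krt18 alone had signals of 8345 and 40300 in p53-/- MEFs. Of 6 endothelial markers, 2 to 4 were well above background, Cdh5 and Tie1 on no array, and their sum lay between 2.35 and 4.26. Kdr and Pecam1 were well above background on all 4 arrays, and Kdr, with signals between 5269 and 7434, made up most of the sum. The part that such cells have in the chemokine values was not tested.

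The main pattern was that most members were highest in doxorubicin-treated p53-/- MEFs. Cxcl1, Cxcl2, Cxcl5, Cxcl9, Cxcl10, Cxcl16 and Cx3cl1 had their highest value there, Cxcl12 in untreated p53-/- MEFs and Cxcl14 in both WT libraries alike, while Cxcl11 had its lowest value in doxorubicin-treated p53-/- MEFs. The share of all genes highest in that library was not counted, so this pattern is not set against a background. In p53-/- MEFs, doxorubicin was accompanied by at least 2-fold higher signal for 6 of 10 members (60.0%) and at least 2-fold lower signal for 2, where 13.3% of all 19706 genes tested were higher and 7.32% lower. In WT MEFs, 2 of the 8 members tested were at least 2-fold higher (25.0%) and 2 lower, beside 14.3% and 10.6% of 20717 genes. Here a gene was tested where it was well above background on at least 1 of the arrays compared. Cxcl2 and Cxcl9 met this only through doxorubicin-treated p53-/- MEFs, so they could be called higher there but not lower. Both are among the 6. As an array mixes all cells of a culture, more cells expressing a chemokine and more RNA per cell cannot be told apart.

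Set by genotype, fewer members were 2-fold apart without doxorubicin than with it, and the same held for all genes. Between the untreated cultures, 1 of 8 members tested (12.5%) was at least 2-fold higher in p53-/- MEFs (Cxcl10) and 1 (12.5%) was lower (Cxcl14). Of 18921 genes, 3.27% were higher and 3.68% lower. Under doxorubicin, 7 of 10 members (70.0%) were higher in p53-/- than in WT MEFs and 1 was lower, beside 13.2% and 11.3% of 20791 genes. Of the 7, Cxcl2 and Cxcl9 were tested only through the library where they were high, and so could not be called lower. The comparisons share arrays, so these counts are not independent of each other. With arrays scaled to their medians, the shares of all genes higher and lower turned to 10.1% and 16% for doxorubicin in WT and to 8.76% and 12.7% in p53-/- MEFs, since the median gene then moved by -0.27 and -0.30.

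**Figure D1:**
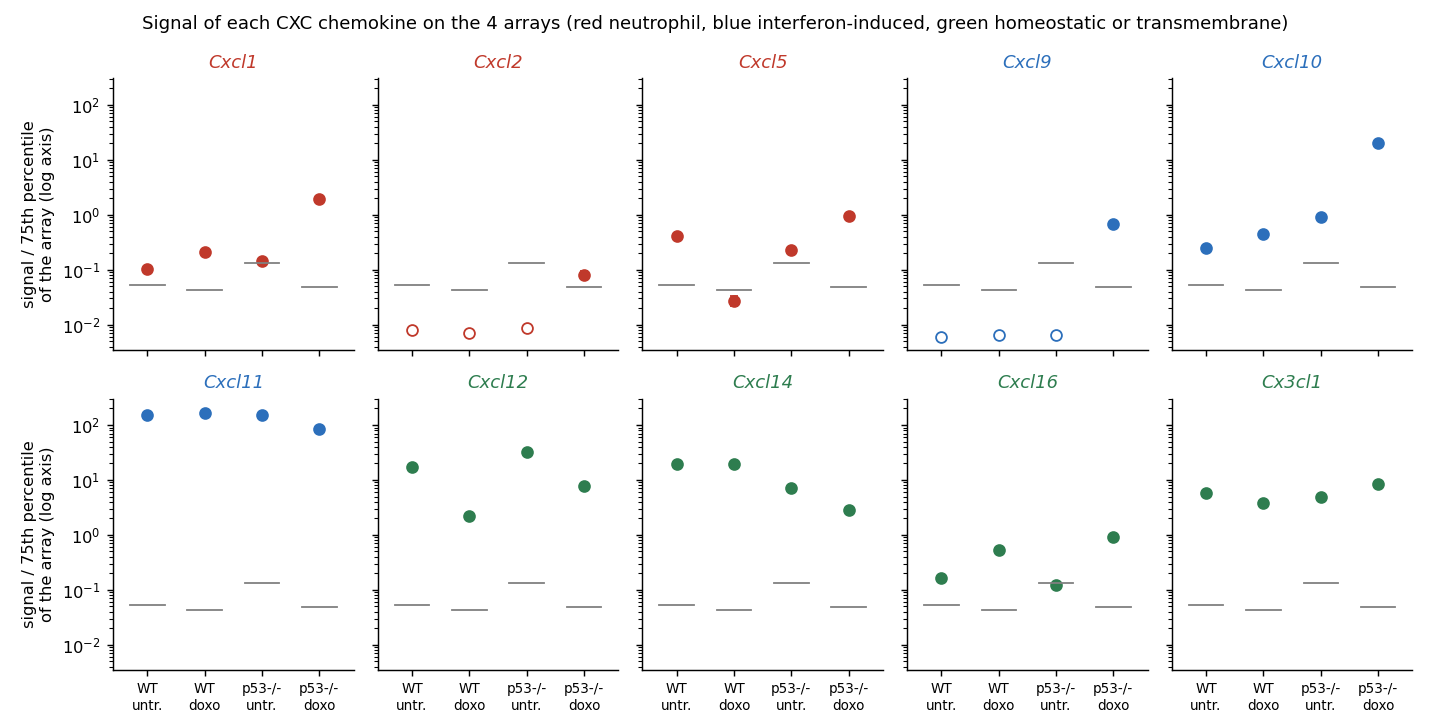
Signal of each member on the 4 arrays, as a multiple of the 75th percentile of that array (log axis). Filled points are well above background and open points are not, bars are the Feature Extraction error where well above background (often smaller than the point), and grey lines mark the brightest negative control of each array. Cxcl2 and Cxcl9 were above background only in doxorubicin-treated p53-/- MEFs, and Cxcl10 reached 20.4 times the 75th percentile there.

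Among the neutrophil chemokines, Cxcl1 (KC, a CXCR2 ligand) had signals of 211.7 in untreated WT, 386.0 in doxorubicin-treated WT, 272.1 in untreated p53-/- and 4622 in doxorubicin-treated p53-/- MEFs. Its probe lies at 91321845 to 91321904 on chromosome 5 (mm9). Only the last library stood clearly above the others. The log2 ratio of doxorubicin-treated over untreated cells was 1.06 ± 0.23 in WT (2.08-fold) and 3.72 ± 0.22 in p53-/- MEFs (13.2-fold). The WT value is at the edge of the 2-fold limit and lay between 0.78 and 1.07 over the alternative scalings and background corrections. A larger ratio in p53-/- MEFs was found for 40 of 16950 measured genes.

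Cxcl2 (MIP-2, a close relative of Cxcl1 and its neighbor on chromosome 5) was not well above background in untreated WT (16.91), doxorubicin-treated WT (12.64) and untreated p53-/- MEFs (16.08), and had a signal of 198.1 in doxorubicin-treated p53-/- MEFs. It was thus detected in 1 library of 4. The bound was at least 2.66-fold higher with doxorubicin in p53-/- MEFs and at least 3.36-fold higher than in doxorubicin-treated WT MEFs. The bound is sensitive to the background. It fell to 1.51-fold in p53-/- MEFs with the normexp background correction, and it is lost against the brightest negative control of untreated p53-/- MEFs. Cxcl3, a further CXCR2 ligand that is not a member, was also detected in that library alone, with signals of 16.39, 12.06 and 15.32 (not well above background) and then 490.9, at least 6.59-fold higher with doxorubicin in p53-/- MEFs, or at least 1.52-fold against that control.

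Cxcl5 (LIX) differed from Cxcl1 and Cxcl2 in WT MEFs. Its signals were 842.3 in untreated WT, 49.45 in doxorubicin-treated WT, 438.5 in untreated p53-/- and 2270 in doxorubicin-treated p53-/- MEFs. Doxorubicin-treated cells were thus lowest in WT and highest in p53-/- MEFs. The log2 ratio for doxorubicin was -3.90 ± 0.33 in WT (14.9-fold lower) and 2.01 ± 0.21 in p53-/- MEFs (4.02-fold higher). Only 23 of 17513 measured genes had a smaller ratio in WT MEFs. The WT minus p53-/- difference of these ratios was -5.91 ± 0.39. It was the lowest of the 16513 genes that were well above background on every array (0 were smaller). The signal of 49.45 is below the brightest negative control of its array (77.46), and against that control Cxcl5 was at least 9.54-fold lower in WT and at least 22-fold higher in p53-/- than in WT MEFs under doxorubicin. The log2 ratio in WT lay between -4.21 and -2.83 over the alternatives.

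The probes listed for the interferon-induced chemokines did not behave as 1 group. Those of Cxcl11, whose target was not tested, differed from those of Cxcl9 and Cxcl10. Cxcl10 (IP-10, a CXCR3 ligand) had signals of 519.2 in untreated WT, 811.8 in doxorubicin-treated WT, 1694 in untreated p53-/- and 49280 in doxorubicin-treated p53-/- MEFs. The last value was far above the rest, and both p53-/- libraries were above both WT libraries. The log2 ratio for doxorubicin was 0.83 ± 0.21 in WT (1.78-fold) and 4.50 ± 0.20 in p53-/- MEFs (22.6-fold). Of 16950 genes measured in p53-/- MEFs, 17 had a larger one.

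Cxcl10 also differed between the untreated genotypes. It was 3.6-fold higher in untreated p53-/- than in untreated WT MEFs (log2 ratio 1.85 ± 0.21), and 20 of 17286 measured genes had a larger ratio. This difference rests on 1 probe, as a further Cxcl10 probe was not well above background in either untreated culture. Under doxorubicin the log2 ratio between genotypes was 5.51 ± 0.20 (45.6-fold), with 11 of 17888 genes above it. The WT minus p53-/- difference of the doxorubicin ratios was -3.66 ± 0.29. Over the alternatives, the ratio in p53-/- MEFs stayed between 4.20 and 4.57 and that between untreated genotypes between 1.68 and 1.90.

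Cxcl9 (MIG, a CXCR3 ligand known for its response to interferon gamma) was not well above background in untreated WT (12.26), doxorubicin-treated WT (11.62) and untreated p53-/- MEFs (12.0), and had a signal of 1676 in doxorubicin-treated p53-/- MEFs. It was detected in 1 library of 4, as Cxcl2 was. The bound was at least 22.5-fold higher with doxorubicin in p53-/- MEFs (log2 ratio 4.49) and at least 28.4-fold higher than in doxorubicin-treated WT MEFs. Against the brightest negative control of untreated p53-/- MEFs it was at least 5.20-fold. The second Cxcl9 probe, at 92752796 to 92752855 on chromosome 5 (mm9), gave 517.6 in that library and no call in the other 3, at least 6.94-fold higher.

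The probes listed for Cxcl11 (I-TAC, the remaining CXCR3 ligand) behaved unlike those of Cxcl9 and Cxcl10. The probe used had signals of 321600 in untreated WT, 299100 in doxorubicin-treated WT, 291400 in untreated p53-/- and 205600 in doxorubicin-treated p53-/- MEFs. It was well above background on every array and lowest where Cxcl9 and Cxcl10 were highest. The log2 ratio for doxorubicin was 0.08 ± 0.20 in WT and -0.87 ± 0.20 in p53-/- MEFs (1.82-fold lower). The second probe, at 92788640 to 92788699 on chromosome 5 of mm9, where the first lies at 92788567 to 92788626, gave 11170, 9193, 10580 and 9802 in the same order and log2 ratios that were -0.09 and -0.48. RefSeq lists mouse Cxcl11 as a transcribed pseudogene, and between 74 and 270 of the 39429 probes were brighter than the first probe on an array. What these probes hybridized to was not tested, so their signals may not stand for the transcript of a CXCR3 ligand. Leaving Cxcl11 out changed no count of higher or lower members.

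**Figure D2:**
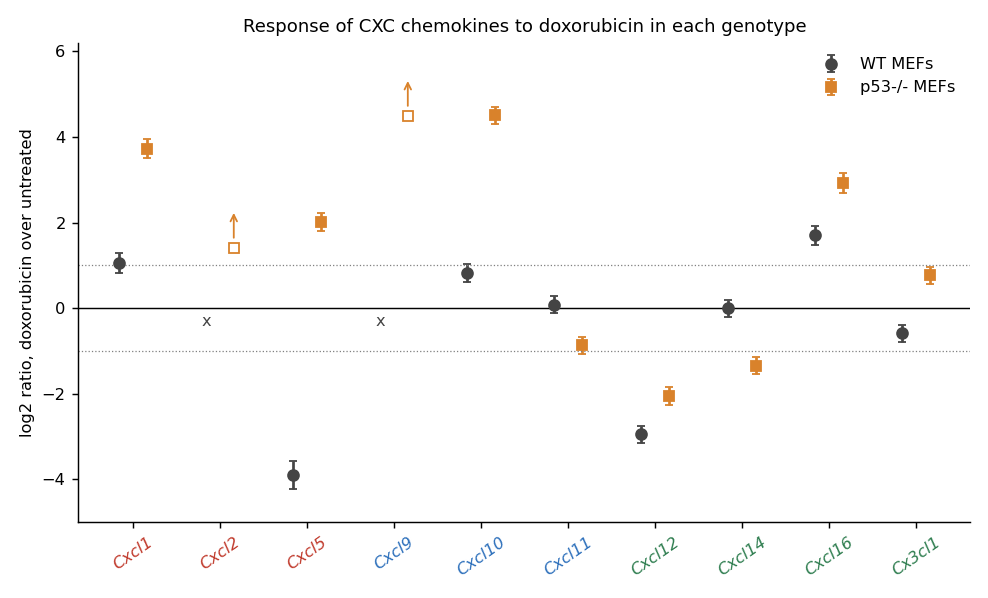
Log2 ratio of doxorubicin-treated over untreated MEFs for each member in WT (circles) and p53-/- MEFs (squares), with Feature Extraction errors as bars. Open squares with arrows are lower bounds, crosses mark members not well above background on both arrays, and dotted lines mark 2-fold. Cxcl5 was -3.90 in WT and 2.01 in p53-/- MEFs, while Cxcl12 was below 0 in both.

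Of the homeostatic members, Cxcl12 (SDF-1, the ligand of CXCR4) was lower with doxorubicin in both genotypes. Its signals were 35660 in untreated WT, 4039 in doxorubicin-treated WT, 60420 in untreated p53-/- and 18760 in doxorubicin-treated p53-/- MEFs. Within each genotype the doxorubicin-treated library was the lower one. The log2 ratio was -2.95 ± 0.20 in WT (7.74-fold lower) and -2.05 ± 0.20 in p53-/- MEFs (4.15-fold lower). Of 17513 measured genes in WT, 108 had a smaller ratio, and of 16950 in p53-/- MEFs, 144. Under doxorubicin, Cxcl12 was 3.49-fold higher in p53-/- than in WT MEFs.

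The array carries 2 probes listed for Cxcl12. The values above are from the probe at 117131227 to 117131286 on chromosome 6 (mm9), and the second probe lies at 117125026 to 117125085. The second probe gave 12260 and 913.9 in WT and 13270 and 5966 in p53-/- MEFs (untreated, then doxorubicin-treated). With doxorubicin it was 11.8-fold lower in WT (log2 ratio -3.56) and 2.86-fold lower in p53-/- MEFs (-1.52). Both probes were lower with doxorubicin in both genotypes. They differed between the untreated genotypes, where the log2 ratio of p53-/- over WT was 0.90 for the first and 0.26 for the second.

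Cxcl14 (BRAK, a chemokine of resting epithelium and stroma) went with genotype. Its signals were 41220 in untreated WT, 36120 in doxorubicin-treated WT, 13240 in untreated p53-/- and 6751 in doxorubicin-treated p53-/- MEFs, so both p53-/- libraries were below both WT libraries. Doxorubicin left it level in WT MEFs (log2 ratio 0.00 ± 0.20) and 2.53-fold lower in p53-/- MEFs (log2 ratio -1.34 ± 0.20). It was 2.82-fold lower in p53-/- than in WT MEFs when untreated (-1.5 ± 0.20) and 7.12-fold lower under doxorubicin (-2.83 ± 0.20). Of 17286 genes measured in the untreated cultures, 147 had a smaller ratio of p53-/- over WT. At this scaling Cxcl14 was the 1 member lower in p53-/- than in WT MEFs by at least 2-fold, treated or not, and with array medians or normexp Cxcl11 joined it under doxorubicin.

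The membrane-anchored members are shed by ADAM proteases to give soluble attractants. Cxcl16 (the ligand of CXCR6) had signals of 336.9 in untreated WT, 960.0 in doxorubicin-treated WT, 232.2 in untreated p53-/- and 2255 in doxorubicin-treated p53-/- MEFs. It was higher with doxorubicin in both genotypes. The log2 ratio was 1.70 ± 0.22 in WT (3.25-fold) and 2.92 ± 0.23 in p53-/- MEFs (7.54-fold), where 103 of 16950 genes had a larger one. The signal of 232.2 is below the brightest negative control of its array (250.1), and against that control the p53-/- ratio was at least 7.0-fold. Of the 10 members, Cxcl1 and Cxcl16 were at least 2-fold higher with doxorubicin in both genotypes, and Cxcl16 remained so in WT MEFs under each alternative, while Cxcl1 did not.

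Cx3cl1 (fractalkine, the ligand of CX3CR1) had signals of 11960 in untreated WT, 6974 in doxorubicin-treated WT, 9224 in untreated p53-/- and 20300 in doxorubicin-treated p53-/- MEFs. As with Cxcl5, the doxorubicin-treated library was the lowest in WT and the highest in p53-/- MEFs. The sizes were smaller, with a log2 ratio of -0.59 ± 0.20 in WT (1.5-fold lower) and 0.77 ± 0.20 in p53-/- MEFs (1.71-fold higher). Under doxorubicin it was 2.19-fold higher in p53-/- than in WT MEFs.

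The classes were set side by side. In p53-/- MEFs the log2 ratios for doxorubicin were 3.72 and 2.01 for the measured neutrophil members with a bound of 1.41 for Cxcl2, and 4.50 and -0.87 for the measured interferon-induced members with a bound of 4.49 for Cxcl9. The homeostatic and membrane-anchored members ran from -2.05 to 2.92 with a median of -0.28. In WT MEFs the neutrophil members ran from -3.90 to 1.06, the interferon-induced members from 0.08 to 0.83, and the third class from -2.95 to 1.70. The median over all measured genes was within 0.009 of 0 in both genotypes. The ranges of the classes thus overlapped in both genotypes. At these bounds, the overlap of the interferon-induced members in p53-/- MEFs rests on the Cxcl11 probe, whose target was not tested. Without it, Cxcl10 (4.50) and the bound of Cxcl9 (4.49) lay above the measured values of the other members, and Cxcl16 (2.92) lay between Cxcl1 and Cxcl5. The place of Cxcl9 depends on the floor and the probe. Its bound was 2.38 against the brightest negative control and 2.8 for the second probe, both under Cxcl1 and Cxcl16. Cxcl2, known only as at least 1.41, cannot be placed.

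**Figure D3:**
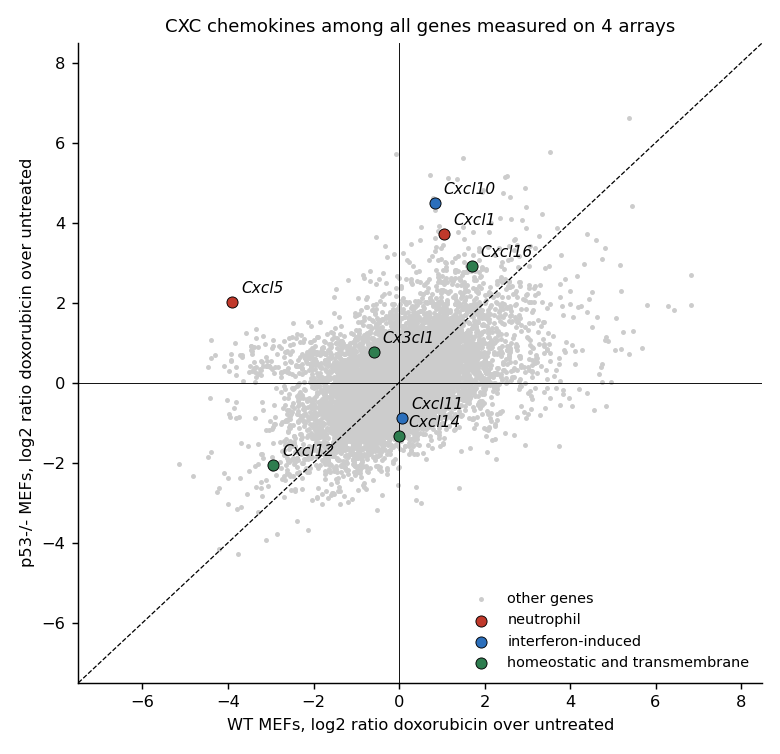
Log2 ratios of doxorubicin-treated over untreated cells in WT (x axis) and p53-/- MEFs (y axis) for the 16513 genes well above background on all 4 arrays (grey), with the 8 members so measured in color. Points above the dashed line had the larger ratio in p53-/- MEFs. Cxcl5 lies alone at the upper left, at -3.90 and 2.01, and Cxcl10 and Cxcl1 lie near the top, at 4.50 and 3.72 on the y axis.

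The steps between neighboring libraries were largest at the top for Cxcl1 (3.17 on the log2 scale between doxorubicin-treated p53-/- and WT) and Cxcl10 (4.50 between doxorubicin-treated and untreated p53-/- MEFs), and largest at the bottom for Cxcl5 (3.1 between untreated p53-/- and doxorubicin-treated WT MEFs). For Cxcl14, the WT libraries differed by 0.00 and for Cxcl11 the 3 highest libraries lay within 0.08 and 0.00 of their neighbors, which is within the Feature Extraction error. For Cx3cl1, the untreated libraries differed by 0.23 ± 0.20. The other steps of measured members were at least 0.35.

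Of 6 further CXC ligands, 3 were tested in each genotype. Those at least 2-fold higher with doxorubicin in p53-/- MEFs were 2, Cxcl3 and Pf4 (platelet factor 4), the latter with signals of 1001 and 3413 (2.65-fold). In WT MEFs 0 of the 3 passed 2-fold in either direction, and Pf4 had signals of 1144 and 1607 (1.60-fold). Of all genes, 13.3% were higher in p53-/- MEFs, and 14.3% were higher and 10.6% lower in WT MEFs. Ppbp was 223.3 and 204.3 in WT and 73.48 (not well above background) and 127.9 in p53-/- MEFs, and Cxcl17, marked above background in 1 library, was at or below the brightest negative control of each array. Cxcl13 and Cxcl15 were not well above background on any array.

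Of the 9 receptors, those of the neutrophil and interferon-induced ligands, Cxcr1, Cxcr2 and Cxcr3, were not well above background on any array, with signals of at most 41.97. The receptors measured were mostly those of the third class and the scavenging receptors. In p53-/- MEFs 5 of 6 tested were at least 2-fold higher with doxorubicin and 1 was lower, beside 13.3% and 7.32% of all genes. In WT MEFs 2 of 5 were higher and 1 lower, beside 14.3% and 10.6%. Against the brightest negative control, 1 of 6 was higher in p53-/- MEFs (Ackr3), since untreated signals of the other 4 were below 250.1, and the WT counts did not change.

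Cxcr4, the receptor of CXCL12, had signals of 55.81 (not well above background) and 250.1 in WT and 76.62 and 342.9 in p53-/- MEFs, untreated and then doxorubicin-treated. It was at least 5.03-fold higher with doxorubicin in WT and 3.48-fold higher in p53-/- MEFs, where its ligand gene was lower. Cxcr6, the receptor of CXCL16, had signals of 313.1 and 1366 in WT (4.97-fold) and 192.5 and 605.5 in p53-/- MEFs (2.44-fold), higher with doxorubicin as its ligand gene was. The values of 76.62 and 192.5 are below the brightest negative control of that array, against which the p53-/- folds were at least 1.06 and at least 1.88, and the WT fold of Cxcr4 was at least 2.63.

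Cx3cr1, the receptor of fractalkine, had signals of 1485 and 266.5 in WT and 1126 and 593.4 in p53-/- MEFs, so it was lower with doxorubicin in both (log2 ratios -2.29 and -1.29). Ackr3, which scavenges CXCL12, was 1395 and 1348 in WT (log2 ratio 0.14) and 1310 and 3718 in p53-/- MEFs (1.14). Ackr1, which binds inflammatory CXC and CC ligands, was 231.2 and 143.3 in WT (-0.50) and 182.1 and 546.7 in p53-/- MEFs (1.22, or at least 0.76 against the brightest negative control). Cxcr5, the receptor of CXCL13, was above background with doxorubicin in p53-/- MEFs alone, at 209.4.

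Some proteases that shed or trim chemokines were 2-fold apart. Of 8, 7 were tested in WT, with 1 higher and 1 lower, beside 14.3% and 10.6% of all genes. In p53-/- MEFs 6 were tested, with 1 higher and 2 lower, beside 13.3% and 7.32%. With so few genes, the shares in the higher direction are near those of all genes. Adam10, which sheds CXCL16 and CX3CL1, had a log2 ratio of -0.78 in WT and of -0.59 in p53-/- MEFs. Dpp4, which trims CXCL10 and CXCL12, had signals of 67.23 and 55.88 in WT and 64.37 and 287.6 in p53-/- MEFs, a log2 ratio of 1.80 in the latter that is lost against the brightest negative control. Mmp2 was lower with doxorubicin in p53-/- MEFs (log2 ratio -1.59), as was Mmp14 (-1.04). Between untreated genotypes Mmp9 was 1.05 higher in p53-/- MEFs on the log2 scale. Under doxorubicin, 2 of 7 were higher in p53-/- than in WT MEFs (Dpp4 and Mmp9) and 3 lower (Mmp2, Mmp8 and Mmp14), beside 13.2% and 11.3% of all genes. The largest log2 ratios were those of Mmp9 (at least 2.63), Mmp2 (-2.4) and Dpp4 (1.95). Against the brightest negative control, Mmp9 was at least 1.82 and Dpp4 at least 1.48. In WT MEFs Mmp8 was at least 2.14 higher and Mmp9 at least 1.70 lower on the log2 scale, or at least 1.20 and 0.90 against that control.

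Genes of the NF-kB pathway and its known targets were mostly higher with doxorubicin in p53-/- MEFs. Of 24 genes, 19 were tested there, and 13 were at least 2-fold higher with doxorubicin and 0 lower, with a median log2 ratio of 1.42 beside 0.00 for all measured genes, of which 13.3% were higher. Against the brightest negative control, 11 of 19 were higher. The largest ratios were those of the cytokine Il6 (3.90, with signals of 632.8 and 12150), the NF-kB inhibitor Tnfaip3 (3.58) and Nfkbie, which encodes an IkB protein (3.02). In WT MEFs 3 of 18 were higher and 1 lower, with a median of 0.33, beside 14.3% and 10.6% of all genes. The largest there were Tnfaip3 (2.70), the adhesion molecule Icam1 (2.46) and Bcl3 (-1.98), while Il6 had 0.52. Untreated genotypes differed by 2-fold for 0 of 17 genes of the list, beside 3.27% higher and 3.68% lower among all genes. Under doxorubicin 13 of 19 were higher in p53-/- MEFs, beside 13.2% of all genes, with Il6 (3.81), Il1a (at least 2.68) and Bcl3 (2.49) highest.

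Some genes of the interferon pathway were higher with doxorubicin. In p53-/- MEFs 9 of 20 genes tested were at least 2-fold higher and 0 lower, with a median of 0.54, and in WT MEFs 3 of 19 were higher and 0 lower, with a median of 0.16. Of all genes 13.3% were higher in p53-/- and 14.3% in WT MEFs, so the WT count is near that of all genes. Against the brightest negative control, 7 of 20 were higher in p53-/- MEFs. Usp18, an interferon-induced inhibitor of the receptor, had signals of 148.4 and 5455 in WT (log2 ratio 5.39) and 162.6 and 20610 in p53-/- MEFs (6.62). Against the brightest negative control, its p53-/- ratio was at least 6.0. Usp18 was thus strongly higher in WT MEFs, where Cxcl10 was 1.78-fold higher and Cxcl9 was not well above background. Irf7, the factor that amplifies the type I response, was at least 2.68 higher in WT and at least 5.33 higher in p53-/- MEFs on the log2 scale. These bounds were 1.75 and 3.22 against that control. Irf5 had a log2 ratio of 1.72 in WT, and Stat2, a subunit of the interferon-activated complex, had 2.45 in p53-/- MEFs. Ifnb1, the gene of interferon beta, was above background on 1 array, with signals of 12.42 and 23.9 in WT and 12.04 and 336.5 in p53-/- MEFs, at least 1.05-fold higher against the brightest negative control. Under doxorubicin, 8 of 20 genes of the list were higher in p53-/- than in WT MEFs, beside 13.2% of all genes. They were led by Irf7 (2.82), Ifnb1 (at least 2.51) and Irf1 (2.38). As with the members, these lists were made with earlier results of the arrays known, and their medians are descriptions.

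**Figure D4:**
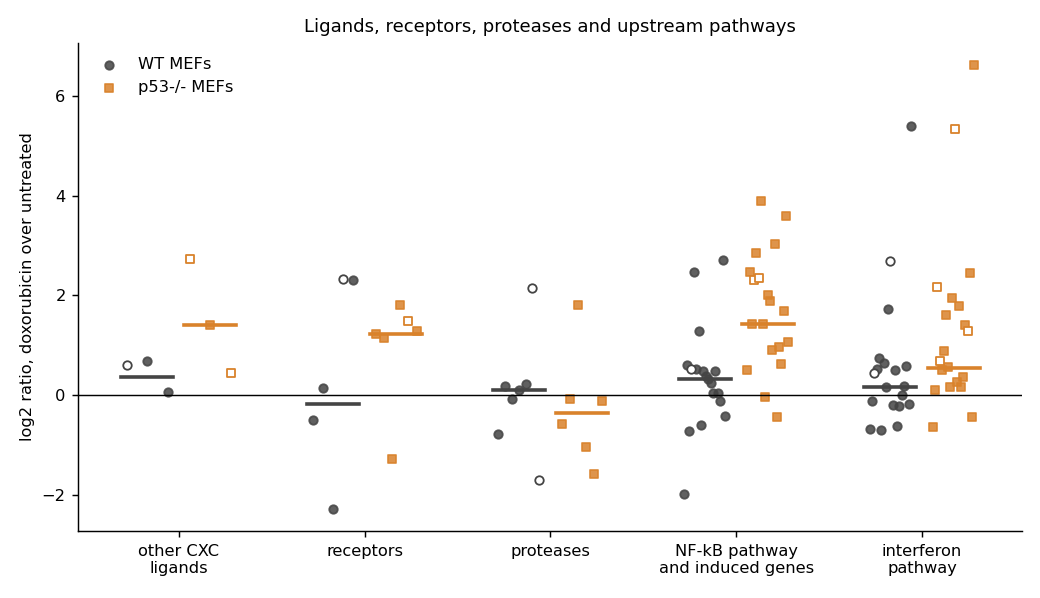
Log2 ratios of doxorubicin-treated over untreated cells for genes of 5 lists in WT (circles) and p53-/- MEFs (squares). Open symbols are bounds, horizontal lines are the medians of measured genes, and genes not well above background on both arrays are not drawn. The median of the NF-kB list was 0.33 in WT and 1.42 in p53-/- MEFs.

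The genes whose pattern over the 4 libraries was nearest to that of Cxcl1 were sought among the 16513 genes measured on all 4 arrays, by the distance between log2 values centered on each gene's mean. They were Phox2a, a homeodomain factor of autonomic neurons (distance 0.34), Arhgap36 (0.40) and Cgn, which encodes the tight junction protein cingulin (0.45). Among members, Cxcl16 ranked 197 and Cxcl10 ranked 282 by nearness to Cxcl1, while Cxcl5 ranked 12500. Both untreated signals of Phox2a (65.65 and 103.1) and of Arhgap36 (99.58 and 154.1) are below the brightest negative controls, so these distances rest on values near background. Nearest to Cxcl11 were Cdyl (0.04), Inka1 (0.07) and Trim37 (0.07), genes that are not interferon-induced markers. For Cxcl10, which was added after its values were seen, the nearest were Arhgap36 (1.55), the adhesion molecule Madcam1 (1.59) and Il6 (1.62), and Cxcl1 ranked 5.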

How the data were processed

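RNA of 4 MEF cultures was measured on 4 one-color arrays (4 conditions, 1 array each). Per the labels, 200 ng of total RNA was labeled with Cy3. The authors read the arrays with Feature Extraction (10.7.3.1), and the deposited spot intensity is its processed signal, background-subtracted and not normalized between arrays. The deposited intensity table equals it at all 44397 spots per array (relative difference 0.0). The deposited flags are scores of 0 or 1 for other spot properties (well above background, outlier, saturated). Probe positions are those of mm9.

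Outlier spots (145 to 168 per array) were left out and 0 spots were saturated. Repeat spots were averaged as log2 values, and set relative to the 75th percentile of the array. The probe with the highest mean stood for its gene. Bounds used the lowest signal marked well above background, or the dim probe's own signal where that was higher. RefSeq (GRCm38.p6) named 26055 probes by accession, 3195 by symbol and 930 by synonym, and 9249 kept the file's name. Precision is limited by the number of arrays, and with 1 array per condition no p-value was calculated.

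The members, lists and tests were chosen with earlier results of these data known. Named genes were the 10 members, every receptor, the 3 largest ratios of each pathway list (between untreated genotypes only those past 2-fold are printed), the 3 genes nearest in pattern to Cxcl1 and Cxcl11 (the members of their classes with the highest signal), and Trp53. Markers, Cxcl13 and Cxcl15, and the 3 genes nearest to Cxcl10, were named after their values were seen. Alternatives were array medians, quantile normalization, the percentile over probes well above background on 4 arrays, normexp (limma 3.58.1, R 4.3.3, offset 50), no filter on dim probes, the deposited table, the mean over all probes of a gene, and 1.5-fold and 3-fold limits. Added after the data were seen were the brightest negative control as the limit (members and pathway lists), the second probe of Cxcl9, Cxcl11 and Cxcl12, and the counts without Cxcl11. The steps were tested on simulated data. Python 3.11.15, numpy 2.4.6, pandas 2.3.3 and matplotlib 3.10.9 were used.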

Additional observations from a re-analysis of the deposited data

Results flagged for a closer look

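The doxorubicin ratio of Cxcl5 ran in opposite directions in the 2 genotypes, lower in WT and higher in p53-/- MEFs, with a WT minus p53-/- difference of -5.91 on the log2 scale. The same was seen at a smaller size for Cx3cl1, with a difference of -1.36. With 1 array per condition neither difference was tested.

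A further Cxcl10 probe, listed in the files under an Ensembl transcript and at 92776616 to 92776675 on chromosome 5 (mm9), was not used above. It had signals of 26.42, 9.71 and 12.38 (not well above background) in untreated WT, doxorubicin-treated WT and untreated p53-/- MEFs, and of 399.0 in doxorubicin-treated p53-/- MEFs. Its bounds on the log2 scale were at least 2.42 for doxorubicin in p53-/- MEFs and at least 2.76 for p53-/- over WT under doxorubicin, the same direction as the Cxcl10 probe used. It gave no ratio for doxorubicin in WT MEFs or between the untreated genotypes.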

How the results depend on the processing

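No paired analysis was possible because each condition has 1 array. For the same reason no array could be left out, and no slide block was fitted, as 1 slide held all arrays. No member at least 2-fold apart changed its direction under the alternatives run, while Cxcl11 and Cxcl14, near 0 for doxorubicin in WT MEFs, went to -0.19 and -0.28 with array medians. Of 361 values of members under the alternatives, 274 stayed within the spread of repeat spots and 87 moved beyond it. Some alternatives could not move a measured value, such as the deposited table, which equals the signals used. The 274 are thus no measure of stability. The count of members higher with doxorubicin in WT MEFs was 1 (Cxcl16) in place of 2 with array medians, quantile normalization, normexp and a 3-fold limit. With a 1.5-fold limit, Cxcl10 (1.78-fold higher) and Cx3cl1 (1.5-fold lower) passed as well in WT MEFs. The count lower with doxorubicin in p53-/- MEFs was 3 (Cxcl11, Cxcl12, Cxcl14) in place of 2 with array medians and at 1.5-fold, and 1 (Cxcl12) at 3-fold, where that lower in untreated p53-/- than WT MEFs was 0 in place of 1. At 1.5-fold, the untreated genotypes gave 2 higher (Cxcl10, Cxcl12) and 2 lower (Cxcl5, Cxcl14) in place of 1 each. Under doxorubicin, 2 members (Cxcl11, Cxcl14) were lower in p53-/- than WT MEFs in place of 1 with array medians, normexp and a 1.5-fold limit. The count higher with doxorubicin in p53-/- MEFs was 5 to 7, and that higher than in WT under doxorubicin was 6 to 8, both without Cxcl2 at their lower end with normexp and against the brightest negative control. Against that control, 6.31% of all genes were higher with doxorubicin in p53-/- MEFs in place of 13.3%, and with normexp 7.98%. Between untreated genotypes the shares of all genes were 1.61% higher and 2.14% lower with normexp, and 2.05% and 2.0% against that control, in place of 3.27% and 3.68%. With normexp, 8.61% of all genes were higher in p53-/- MEFs under doxorubicin in place of 13.2%. The cause was not tested. Signals near background limit Cxcl2, Cxcl9 and, in doxorubicin-treated WT MEFs, Cxcl5.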
